A study of Mus musculus with 6 samples.

Results

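The RNA exosome, the 3′–5′ RNA decay complex of the nucleus and the cytoplasm, was followed at the transcript level in activated B cells of *Tent5c* KO and WT mice. *Tent5c* encodes the cytoplasmic poly(A) polymerase TENT5C. The 9 genes described are *Dis3*, *Exosc2*, *Exosc3*, *Exosc4*, *Exosc5*, *Exosc7*, *Exosc8*, *Exosc9* and *Exosc10*, which were chosen by name as the nuclease DIS3 and subunits of the exosome, out of 54446 genes with values. All 9 passed the filter on low values (a mean of 10 normalized counts or more), as did 12322 genes in all. Naive B cells were taken from spleens of TENT5C KO and WT mice of a mixed C57BL/6J X CBA strain by negative selection and kept in culture for 7 days under IL-4 (20 ng/ml) together with LPS (20 µg/ml), a pair of stimuli that drives division, class switching and plasmablast formation. There were 3 KO and 3 WT libraries of ribodepleted total RNA. The mice were 12–15 weeks old and came from heterozygous matings. By the methods, each replicate number stands for 1 KO mouse and 1 WT littermate housed together (pairs 1, 2 and 3). This number is also called the batch below.

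The exosome is a barrel of RNase PH-like subunits covered by a cap of S1 and KH domain subunits, none of which cuts RNA in mammals. RNA is threaded through the cap and the barrel to DIS3, a 3′–5′ exonuclease and endonuclease at the bottom of the barrel, while EXOSC10, a distributive 3′–5′ exonuclease, sits on the cap in the nucleus. In the B cell lineage, *DIS3* and *TENT5C* (also named *FAM46C*) are both recurrently mutated in multiple myeloma, a tumour of plasma cells.

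*Tent5c* itself had 1255, 767 and 1585 normalized counts in WT libraries 1, 2 and 3 and 1993, 993 and 1170 in the libraries labelled KO. The 2 groups overlapped and the transcript was present in every library. The labels do not describe the KO allele, so this level does not check them, and KO stands below for the libraries so labelled. The libraries held between 5393558 and 6793520 fragments on genes. Markers of B cells summed to 52136–59311 normalized counts, and those of plasmablasts to 7905–18378. T cell markers summed to 24.0–87.9 and 1 of 8 passed the minimum, myeloid markers to 18.1–129 with 2 of 8 passing and 3 at 0 in every library, and erythroid markers to 0–4.72 with 4 of 6 at 0. Values were divided by a size factor per library, set on the assumption that most transcripts do not change, so a change shared by most transcripts would not be seen, and in these bulk samples fewer cells of a type and less RNA per cell cannot be told apart.

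Short stretches of the promoters introduce the members that come first in the results: *Dis3* and *Exosc10*, the genes of the catalytic subunits, and *Exosc5*. The last was the only member whose KO and WT libraries did not overlap. All KO libraries lay above all WT libraries for 3.39% of all genes tested, and *Exosc5* was not called (adjusted p of 0.97 in limma). Windows around the RefSeq start (GRCm38.p6) were given for 7 of the 9 members, not for *Exosc4* and *Exosc9*. Each run below holds 120 bases before and 30 bases from the start, 5′ to 3′ on the strand of the gene. In the first pair, capitals mark TCTCGCGAGA, a palindrome found in promoters of housekeeping genes. In *Exosc5* they mark CACGTG, an E-box of the kind bound by MYC and USF proteins, and GCGCATGCGC, the palindrome of NRF1 sites.
*Dis3*, chr14:99099741-99099890, minus strand: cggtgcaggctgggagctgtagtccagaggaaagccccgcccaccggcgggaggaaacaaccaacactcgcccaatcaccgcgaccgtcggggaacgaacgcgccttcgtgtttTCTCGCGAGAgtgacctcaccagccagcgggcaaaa
*Exosc10*, chr4:148558299-148558448, plus strand: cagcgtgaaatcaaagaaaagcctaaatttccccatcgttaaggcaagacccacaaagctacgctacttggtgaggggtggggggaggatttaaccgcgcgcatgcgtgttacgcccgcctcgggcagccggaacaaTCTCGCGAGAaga
*Exosc5*, chr7:25659033-25659182, plus strand: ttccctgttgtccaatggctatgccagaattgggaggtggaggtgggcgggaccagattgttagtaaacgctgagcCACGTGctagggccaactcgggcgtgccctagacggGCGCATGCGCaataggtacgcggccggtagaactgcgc

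TCTCGCGAGA lay at positions -6 to 3 in *Dis3* and 17 to 26 in *Exosc10*, counted from the first transcribed base as 0. The 7 windows of the members hold 8 different stretches of 10 bases that equal their own reverse complement, and TCTCGCGAGA was the only one of them present in more than 1 member (2 of 7). Of all 32851 windows of 300 bases, 0.466% held it (153 windows). As the stretch was picked from the members' own windows, this share is no test of enrichment. The other motifs were searched by name on both strands, and the set was chosen after the members' windows had been read. *Exosc5* was the only member with CACGTG (7.15% of all windows), at -44 to -39, and with the stretch GCGCATGCGC (0.971%), at -8 to 1. CCGGAAG, the core of ETS family sites, was in *Dis3* and *Exosc3* (8.86% of windows), CCAAT in *Dis3*, *Exosc2* and *Exosc5* (37.4%), GGGCGG in 6 of 7 members (35.7%) and TATAAA in 0 of 7 (13.6%). These matches describe the letters of the windows and were not tested for binding.

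In these cells no member of the complex was called different between KO and WT. The test was that of limma for log2(normalized count + 1) with genotype and littermate pair as terms and Benjamini-Hochberg adjustment over 12322 genes. At an adjusted p under 0.05, 0 of the 9 members were lower and 0 were higher, against a background of 0% of all genes lower and 0% higher. Without adjustment, p lay under 0.05 for 3.03% of genes in the lower direction (373 genes) and 1.67% in the higher one (206 genes), and for 0 members in either. The quasi-likelihood fit of edgeR to recovered fragments called 0 genes, and DESeq2 called 22 lower and 1 higher of 9894 genes, with an adjusted p of 1.00 for every member. The median log2 fold change (KO minus WT) of the members was 0.0020, with 5 above and 4 below 0, beside 0.00067 over all genes tested.

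**Figure D1:**
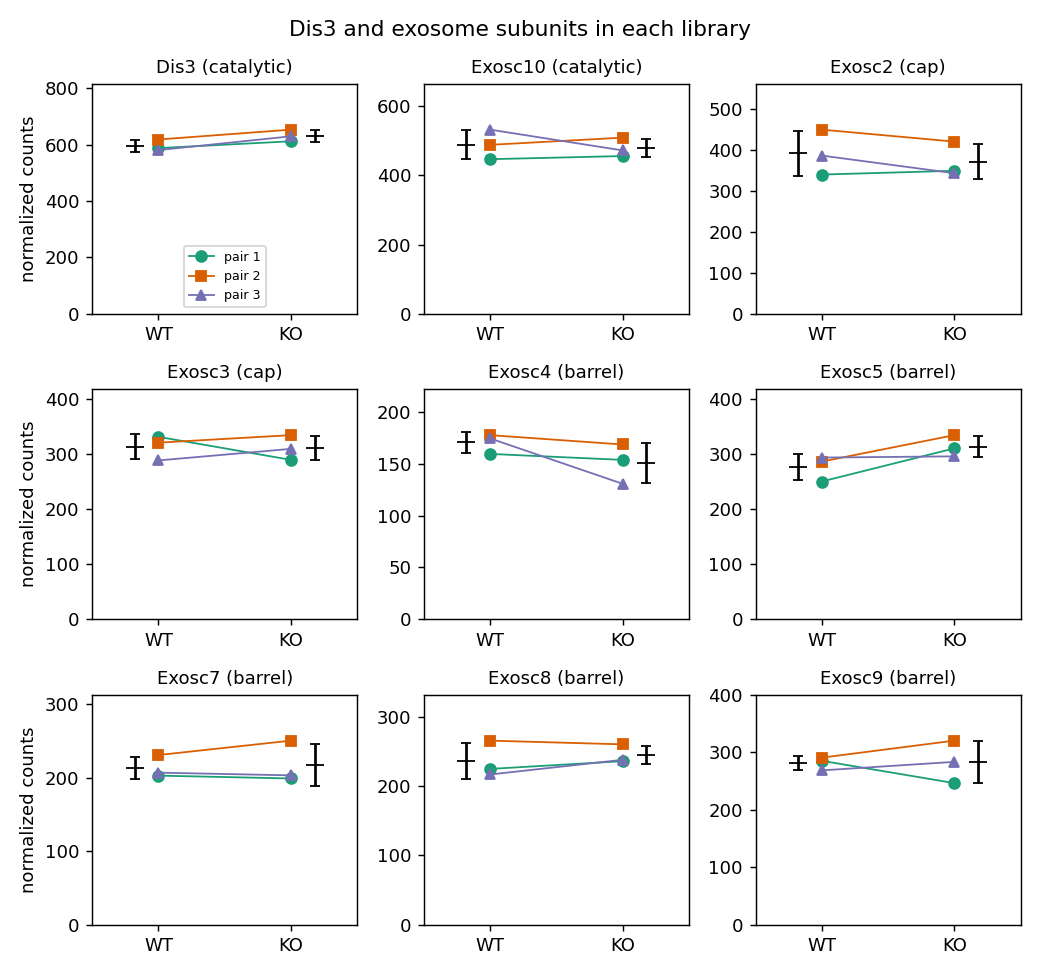
Normalized counts (vertical axis, from 0) of each member in the WT and KO libraries, with a line joining the littermates of a pair and black bars for the group mean ± SD (n = 3). The KO and WT points overlap for 8 of the 9 members, and the KO library of pair 2 is the highest KO point in each panel. Only the KO points of *Exosc5* all lie above its WT points, which held for 3.39% of all genes tested.

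*Dis3* (ENSMUSG00000033166, GRCm38 chr14:99075206-99099770, minus strand) encodes the processive exonuclease of the complex. It had 587, 618 and 580 normalized counts in WT libraries 1, 2 and 3, and 612, 653 and 629 in KO libraries 1, 2 and 3. The WT library of pair 2 lay above the KO library of pair 1, so that the groups overlapped, although the KO littermate was the higher one in each pair. The means were 595 ± 20.0 in WT and 631 ± 20.8 in KO (SD, n = 3). The log2 fold change was 0.085 ± 0.066 (SE) with a 95% interval of -0.073 to 0.24 and an adjusted p of 0.97 in limma, that is a fold of 1.06 (0.950–1.18). The ratios by pair were 1.04, 1.06 and 1.08, each from 482 to 693 fragments per library, and the counting interval of each ratio held 1 (0.931–1.16, 0.945–1.18 and 0.964–1.22).

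The spread of the *Dis3* log2 ratios over pairs (SD 0.030) was smaller than that of any other member (0.082–0.20). All 3 *Dis3* ratios lay within the counting interval of each pair, so their closeness does not show a difference from WT. *Dis3* was 1 of 2 members, with *Exosc5*, that were higher in all 3 pairs, beside 11.7% of all genes tested, and *Exosc4* was the 1 member lower in all 3, beside 13.1%. An exact two-sided sign-flip permutation test gave p = 0.25 for each of these 3 genes, which is the smallest value 3 pairs can give. Any gene whose 3 ratios share a sign gets this value, so the test adds nothing to the count of signs.

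*Exosc10* (ENSMUSG00000017264, chr4:148558429-148582401, plus strand) encodes the nuclear exonuclease also called Rrp6. Its WT libraries had 447, 488 and 532 normalized counts and its KO libraries 456, 509 and 472, which overlapped. The WT library of pair 3 was the highest of the 6, and in that pair the KO littermate was at 0.887 of the WT level (0.780–1.01), while in pairs 1 and 2 it was at 1.02 and 1.04. The log2 fold change was -0.028 (-0.22 to 0.16) with an adjusted p of 0.99 in limma.

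The cap subunits whose genes belong to the 9 members are EXOSC2 (Rrp4) and EXOSC3 (Rrp40), RNA-binding proteins at the entry of the channel. *Exosc2* (ENSMUSG00000039356, chr2:31670715-31681349, plus strand) had 339, 449 and 385 normalized counts in WT and 348, 419 and 342 in KO libraries. Pair 2 was the highest in both groups, and both of its libraries lay above the other 4. The log2 fold change was -0.076 (-0.27 to 0.12) with an adjusted p of 0.97 in limma. *Exosc3* (ENSMUSG00000028322, chr4:45316613-45342732, minus strand) had 331, 320 and 288 in WT and 289, 334 and 309 in KO libraries. Its pairs pointed both ways, with a KO to WT ratio of 0.874 in pair 1 and of 1.04 and 1.07 in pairs 2 and 3, and the log2 fold change was -0.011 (-0.24 to 0.21). This value was 0.0027 under quantile normalization.

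*Exosc1*, the gene of the remaining cap subunit (Csl4), is not one of the 9 members and was read beside them. It had 168, 190 and 158 normalized counts in WT and 185, 185 and 159 in KO libraries, with overlapping groups and a log2 fold change of 0.036 (-0.21 to 0.28).

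Among the genes of the barrel, *Exosc5* (Rrp46; ENSMUSG00000061286, chr7:25659164-25671368, plus strand) had the highest fold estimate of the 9 members and *Exosc4* (Rrp41) the lowest. *Exosc5* had 250, 286 and 294 normalized counts in WT libraries 1, 2 and 3, and 311, 335 and 296 in KO libraries. All KO values lay above all WT values, by 296.01 against 293.78 at the nearest, which was true of 1 of 9 members beside 3.39% of all genes tested. The means were 277 ± 23.3 in WT and 314 ± 19.5 in KO (SD, n = 3), and the log2 fold change was 0.18 ± 0.093 (SE; -0.043 to 0.41) with an adjusted p of 0.97 in limma. Without pair 1 it was 0.12. The ratios were 1.24 (1.05–1.46) in pair 1, 1.17 (0.994–1.37) in pair 2 and 1.01 (0.851–1.19) in pair 3. The counting interval left out 1 only in pair 1, which compared 329 with 265 fragments. *Bckdha*, a subunit gene of the branched-chain ketoacid dehydrogenase, starts 183 bases away on the other strand. It had 196, 189 and 166 normalized counts in WT and 176, 179 and 183 in KO libraries, which overlapped.

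*Exosc4* (ENSMUSG00000034259, chr15:76327397-76330677, plus strand) had 160, 178 and 175 normalized counts in WT libraries 1, 2 and 3, and 154, 169 and 131 in KO libraries. The KO library of pair 3 was the lowest of the 6, while the other KO libraries were close to their littermates. The means were 171 ± 9.69 in WT and 151 ± 19.1 in KO (SD, n = 3), and the log2 fold change was -0.18 ± 0.12 (SE; -0.47 to 0.11) with an adjusted p of 0.97 in limma. Without pair 3 it was -0.064, and *Exosc3* was then the lowest member at -0.067. No member had all KO libraries below all WT libraries, beside 3.44% of all genes tested. The ratio of pair 3 was 0.749 (0.591–0.950, 144 against 145 fragments before scaling), and those of pairs 1 and 2 were 0.964 (0.773–1.20) and 0.949 (0.765–1.18). In the same pair 3 the 5 plasmablast markers (*Sdc1*, *Prdm1*, *Xbp1*, *Irf4* and *Jchain*) summed to 18378 normalized counts in the WT and 10612 in the KO library, with 0 of the 5 listed at 0 throughout, and in pair 1 to 10895 and 15765. Their part in the *Exosc4* value was not tested.

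**Figure D2:**
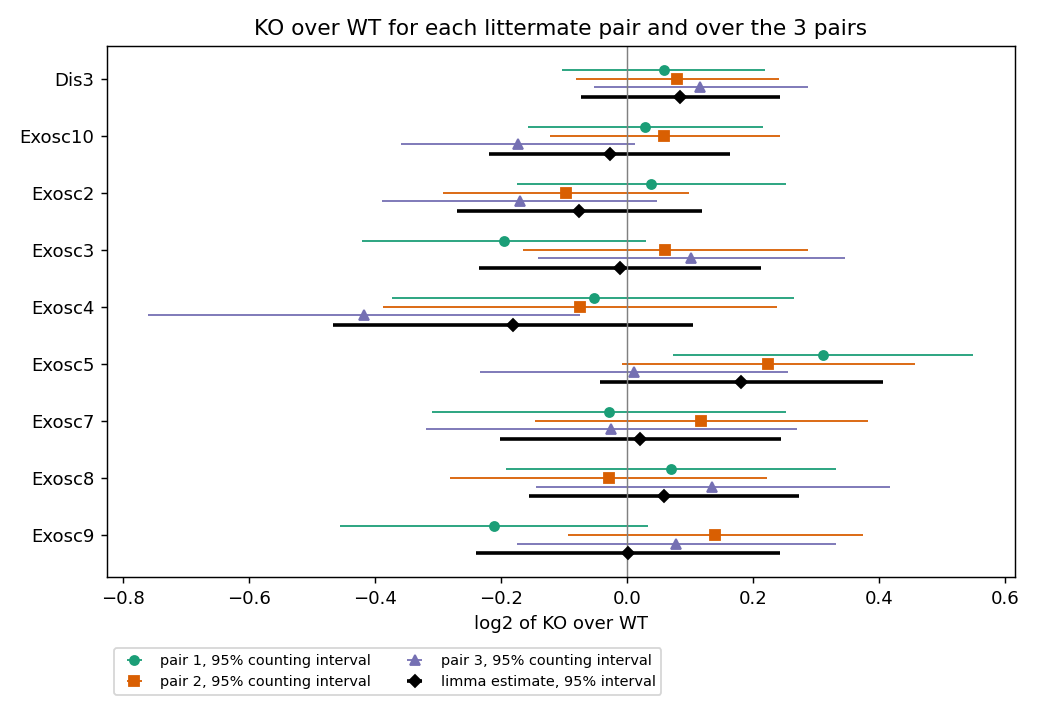
Log2 ratio of KO over WT for each member (rows), by littermate pair with 95% intervals that cover counting error only (coloured points) and over the 3 pairs from limma with its 95% interval (black diamonds). All 9 black intervals cross 0, and of the 27 coloured ones only those of *Exosc5* in pair 1 and *Exosc4* in pair 3 do not.

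The other barrel subunits lay closer to their WT littermates on average. *Exosc7* (Rrp42; ENSMUSG00000025785, chr9:123113215-123136129, plus strand) had 203, 231 and 207 normalized counts in WT and 199, 251 and 203 in KO libraries. Pair 2 was the highest in both groups, and the log2 fold change was 0.021 (-0.20 to 0.24). *Exosc8* (Rrp43; ENSMUSG00000027752, chr3:54728678-54735393, minus strand) had 225, 266 and 217 in WT and 236, 260 and 238 in KO libraries. Here pair 2 was again the highest in both groups, and the log2 fold change was 0.058 (-0.16 to 0.27). *Exosc9* (Rrp45; ENSMUSG00000027714, chr3:36552606-36565727, plus strand) had 285, 291 and 269 in WT and 246, 320 and 283 in KO libraries. Its KO libraries spread more widely than its WT libraries (SD 37.0 against 11.5) and enclosed them, with a log2 fold change of 0.0020 (-0.24 to 0.24). *Exosc6*, the gene of the last barrel subunit (Mtr3), is no member and was listed at 0 in all 6 libraries. It has a single exon of 1326 bases (chr8:111056339-111057664), 100% of which lies in exons of *Aars* on the same strand, and the counting that the methods describe did not assign a fragment to more than 1 gene, so its level was not measured.

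The precision was that of other genes of like abundance. The 95% intervals of the 9 log2 fold changes lay between -0.47 and 0.41, which are the lower bound of *Exosc4* and the upper bound of *Exosc5*. For *Dis3* the interval left out a KO level below 0.950 or above 1.18 of the WT level. The median width of the members' intervals was 0.45, beside 0.46 for the 4298 tested genes whose mean lay in the same range (161–613 normalized counts). The median size of the log2 fold change, regardless of sign, was 0.058 for the members and 0.071 for those genes. Of the 27 pair ratios, 2 had a counting interval that left out 1, beside 20.4% of the ratios of genes in that range and 20.7% of those of all genes tested.

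The sum of the 9 members was 2827, 3126 and 2946 normalized counts in WT libraries 1, 2 and 3, and 2850, 3249 and 2904 in KO libraries. Pair 2 was the highest in both groups. Gene by gene, the KO library of pair 2 was the highest KO library for 9 of 9 members, beside 35.7% of all genes tested, and the WT library of pair 2 was the highest WT library for 6 of 9, beside 33.2%. The batch term of the same limma fit was called for 0 of 9 members, beside 1.15% of genes (142), and at an unadjusted p under 0.05 for 1 of 9, *Exosc2* (adjusted p = 0.33), beside 12.5% (1541 genes). The number stands for the litter, and whether culture and library preparation were also shared within a number is not given in the sources used here.

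Genes of cell division and of ribosome biogenesis, a process that uses the exosome to trim precursor rRNA, were also mostly highest in pair 2. Of the 11 cell division genes, 9 were highest in the KO library of pair 2 among KO libraries and 9 in that of pair 2 among WT libraries. Of the 24 ribosome biogenesis genes these counts were 18 and 15. Plasmablast markers were lowest in pair 2, with sums of 7905 in the WT and 8049 in the KO library of pair 2, the lowest of each group. Their part in the level of the exosome genes was not tested.

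Over the 6 libraries, Pearson r of the log2 values with *Dis3* was 0.808 for *Exosc8*, 0.709 for *Exosc5*, 0.670 for *Exosc7* and 0.573 for *Exosc9*. It was 0.066 for *Exosc10* and -0.230 for *Exosc4*. The highest values within the complex were 0.860 for *Exosc3* with *Exosc9* and 0.844 for *Exosc2* with *Exosc7*. The 5 genes most like *Dis3*, among 7897 whose mean was 100 normalized counts or more, were *C920009B18Rik* (r = 0.991), *Zfp444* (0.987), *Alms1* (0.983), *A630089N07Rik* (0.983) and *Iqgap3* (0.982). These 5 were picked as the highest of the 7897. All these values describe 6 libraries that share their scaling and their pairs, and no r was tested. *Dis3* itself ranged only from 580 to 653 normalized counts, and how much of that spread is counting error was not tested. Whether the members vary together is thus not settled by these values.

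Levels of different genes were compared only per kb of transcript, taking for each gene the Gencode transcript with the longest coding sequence. On this scale *Exosc3* was the most abundant member, with 289 ± 18.6 normalized counts per kb (SD over 6 libraries), followed by *Exosc2* with 226 ± 27.0 and *Exosc7* with 205 ± 19.6. *Exosc8* (185 ± 14.8), *Exosc5* (176 ± 16.6), *Exosc9* (175 ± 15.2) and *Exosc10* (174 ± 11.7) came next, and *Exosc1* had 171 ± 14.1. These neighbours in the order overlapped, except that the lowest library of *Exosc3* (267) was just above the highest of *Exosc2* (266). *Dis3* (119 ± 5.21, range 113–127) lay below all of them in every library, and *Exosc4* (89.6 ± 9.62, range 72.8–99.0) below *Dis3*.

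The low place of *Dis3* and the place of most barrel genes depended on the length used. Per kb of all annotated exons, *Exosc3* was again highest (235 ± 15.1), *Exosc10* (135 ± 9.05) and *Exosc2* (132 ± 15.8) followed, and *Dis3* (79.1 ± 3.46) and *Exosc4* (82.7 ± 8.88) overlapped. *Exosc7*, with many annotated exons outside its coding transcript, was then lowest at 35.9 ± 3.42. On both scales every library of *Exosc2* was above every library of *Dis3*, *Exosc4*, *Exosc5*, *Exosc9* and *Exosc1*, and every library of *Exosc10* above those of *Dis3* and *Exosc4*. Other places in the order, such as that of *Exosc7*, changed with the scale.

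**Figure D3:**
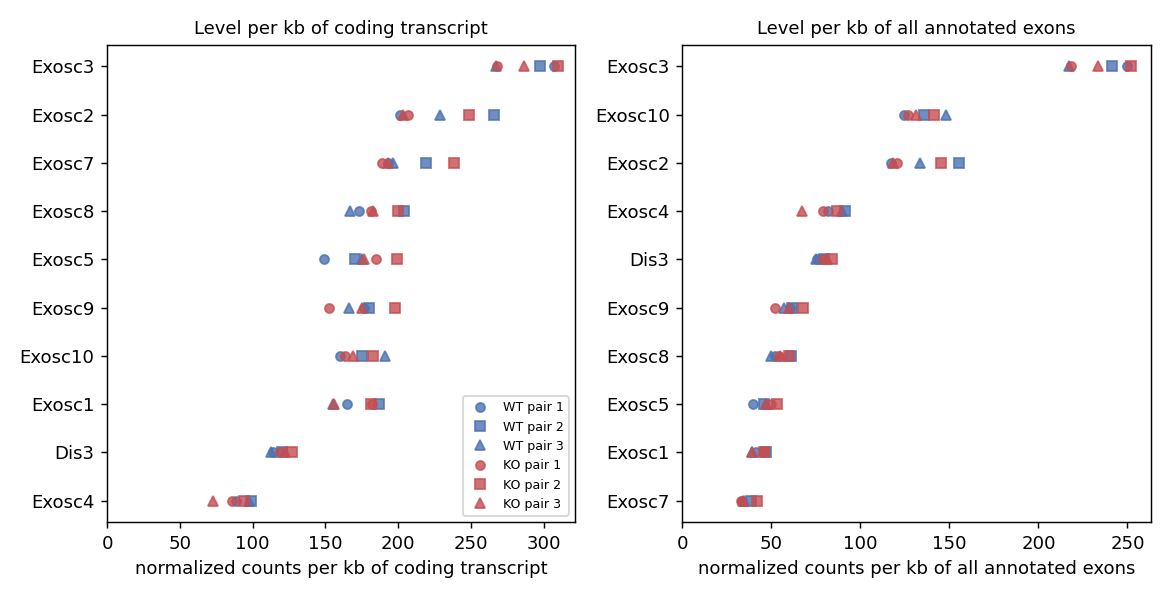
Normalized counts per kb of coding transcript (left) and per kb of all annotated exons (right), both axes from 0, for the members and *Exosc1* in each library (blue WT, red KO, marker shape for the pair). *Exosc3* is highest on both scales, while *Exosc7* moves from 205 ± 19.6 on the left to 35.9 ± 3.42, the lowest, on the right.

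DIS3 has a pair of paralogs, of which DIS3L works with the exosome core in the cytoplasm and DIS3L2 outside the complex. *Dis3l* had 151, 116 and 153 normalized counts in WT and 149, 97.2 and 116 in KO libraries, which overlapped. The KO littermate was lower in all 3 pairs, with a log2 fold change of -0.22 (-0.52 to 0.079) and an adjusted p of 0.97 in limma. *Dis3l2*, whose product degrades uridylated RNA, had 298, 269 and 226 in WT and 267, 291 and 264 in KO libraries, and its log2 fold change was 0.059.

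The nuclear cofactors bring RNA to the exosome through the helicase MTR4, the TRAMP and NEXT complexes and the cap-binding complex. None of their 14 genes passed in either direction, 3 were higher and 0 lower in all pairs, and their median log2 fold change was 0.063. The shares over all genes tested were 11.7% higher and 13.1% lower in all pairs. *Mtrex*, the gene of MTR4, had 473, 563 and 490 normalized counts in WT and 472, 543 and 617 in KO libraries, and only in pair 3 was the KO library the higher one (log2 fold change 0.093, -0.14 to 0.32). *Zc3h18*, which links the cap-binding complex to NEXT, had 499 ± 8.05 in WT and 555 ± 17.5 in KO (SD, n = 3), a log2 fold change of 0.15 (-0.016 to 0.32), and *Zcchc8*, the scaffold of NEXT, had 0.088. Both were higher in all 3 pairs. *Rbm7*, the RNA-binding subunit of NEXT, had -0.097 and *Tent4b*, the poly(A) polymerase of TRAMP, had -0.094.

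In the cytoplasm the SKI complex feeds mRNA to the exosome, and PELO and HBS1L rescue stalled ribosomes. Of these 5 genes 0 passed in either direction, and the median log2 fold change was -0.0069. The helicase gene *Skiv2l* was at -0.085 and lower in all 3 pairs, *Pelo* at -0.16 and *Hbs1l* at 0.044. Among the 18 genes of decapping and 5′–3′ decay, the route that competes with the exosome, 0 passed in either direction, 6 were lower and 1 was higher in all pairs (all genes tested: 13.1% and 11.7%), and the median was -0.0069. The lower ones included *Dxo*, a decapping enzyme of incomplete caps (-0.30, -0.67 to 0.079), and *Dcps*, which clears the cap left by the exosome (-0.18, -0.41 to 0.049). The higher one was *Xrn1*, the cytoplasmic 5′–3′ exonuclease (0.16, -0.045 to 0.37), while *Dcp1b*, a decapping coactivator, was at 0.30 with pairs of both signs.

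The medians of the ribosome biogenesis and cell division lists were -0.0027 and 0.040, with 0 of 24 and 0 of 11 genes passing. Their named genes were *Wdr12* (-0.088), *Nol6* (-0.099), *Utp4* (0.15) and *Nop56* (0.13), which act in ribosome assembly, and *Mcm2* (-0.052), *Aurkb* (-0.026), *Top2a* (0.11) and *Mki67* (0.13), which act in replication and mitosis. In the middle 50% of all genes tested the log2 fold change lay between -0.092 and 0.092, and 7 of the 9 exosome members were inside that range. That range also covers genes of lower counts. The median size of the log2 fold change was 0.092 over all genes tested and 0.071 for genes of the members' abundance.

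**Figure D4:**
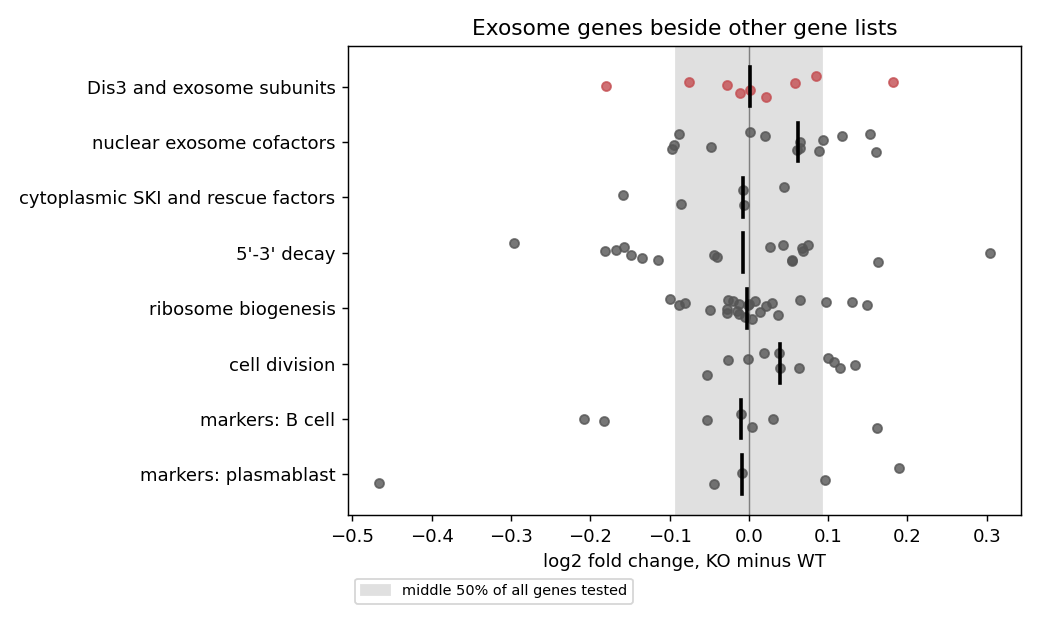
Log2 fold change (KO minus WT, horizontal axis) of each tested gene in the exosome members (red) and in the other gene lists (dark grey), with a black bar for the median of the list and a grey band for the middle 50% of all 12322 genes. The red points centre on 0.0020, with only *Exosc4* (-0.18) and *Exosc5* (0.18) outside the band. The band is not limited to genes of the members' abundance.

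Markers of the cells themselves did not pass either. B cell marker genes had a median of -0.010, and *Cd79a* (-0.21) and *Cd74* (-0.18), a signalling part of the B cell receptor and the invariant chain of MHC class II, had an unadjusted p under 0.05, while *Pax5* was at 0.16 and *Ptprc* at 0.031. Plasmablast markers had pair medians of 0.42, 0.0060 and -0.50, so that their order between littermates turned between pairs 1 and 3, with *Jchain* at -0.47, *Sdc1* at -0.044, *Xbp1* at 0.19 and *Prdm1* at 0.096 over the 3 pairs. The pair medians of the exosome members were 0.029, 0.060 and 0.011. Among the members, *Exosc2* and *Exosc10* went from above 0 in pair 1 to below 0 in pair 3, and *Exosc3* and *Exosc9* from below to above. Of the markers of other cells, *Cd28* (-0.071), *Adgre1* (-0.38) and *Lyz2* (-0.54) passed the minimum, at 17.1–49.6 normalized counts on average in either group. The value of *Lyz2* came from pair 2, with 27.2 normalized counts in WT and 2.86 in KO, while the KO library was the higher one in pairs 1 and 3 and the KO mean (49.6) was above that of WT (39.9).

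Finally, 6 of the 9 members share a start region with a protein-coding gene on the other strand. Distances between starts ran from 10 bases (*Exosc7* with *Zdhhc3*) to 631 bases (*Exosc3* with *Dcaf10*). The share of all genes with such a neighbour was not counted, so this count does not set the members apart. *Dis3* starts 346 bases from *Pibf1*, a centrosomal protein gene. *Pibf1* had 208, 161 and 211 normalized counts in WT and 173, 150 and 197 in KO libraries. In each pair the KO littermate was thus lower for *Pibf1* and higher for *Dis3*, and for both genes the groups overlapped. Counting was strand-specific, and 0% of the members' exon bases lay in exons of another gene on the same strand.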

How the data were processed

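The authors trimmed reads with cutadapt, aligned them with STAR 2.6.1a to GRCm38 and used featureCounts (Subread 1.6.3), with the strand set and both mates required, to count fragments per gene. Each library was then divided by its size factor from DESeq2. What the authors deposited is a signal, namely counts after this division, and covers 54446 genes in 6 libraries. Symbols, positions and lengths came from Gencode vM21 (54409 identifiers matched, 37 did not), a later release than the one the authors counted with.

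Fragments were recovered from the steps of each library: 100% of the values above 0 were whole within 0.01. A floor of 3 fragments equals 2.72–3.61 normalized counts. Main test: limma 3.58.1 (R 4.3.3; trended eBayes), two-sided, after a log2 transform with a pseudocount of 1, for genes whose mean was 10 or more, with genotype and batch as terms and a Benjamini-Hochberg threshold of 0.05. Fold changes are on that log2 scale. On recovered fragments edgeR 4.0.16 called 0 genes and DESeq2 1.42.0 called 22 lower and 1 higher. The scripts were tested on simulated data. Counting intervals of pair ratios are 95% Clopper-Pearson intervals and cover counting error only.

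By the methods, littermates of both genotypes make up each replicate, so the numbers pair the samples. Deviations of same-numbered libraries from their group means correlated at 0.328, 0.685 and 0.170, and those of different numbers at -0.497 to 0.282. In pair 3, the WT library correlated more with KO library 1 (0.260) than with its littermate. The KO library of pair 3 likewise correlated more with WT library 1 (0.282). The values alone thus do not show pair 3 to be a pair. Named genes were the members, *Tent5c*, *Exosc1*, *Exosc6*, *Dis3l*, *Dis3l2*, *Mtrex*, up to 2 genes per direction with the smallest p of each other list, and the 5 genes most like *Dis3*. *Bckdha*, *Pibf1*, *Zdhhc3* and *Dcaf10* were added for their position, *Irf4* as the remaining plasmablast marker and *Aars* for its overlap. Members and lists were chosen with earlier results of these data known. Pseudocount, filter, scaling, block, test and left-out pairs were the alternatives. Protein sequences were not used here. One further gene list is not reported here.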

Additional observations from a re-analysis of the deposited data

How the results depend on the processing

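No setting called a member. Without the replicate block the members' median log2 fold change stayed at 0.0020 and 0 genes were called in either direction. With a replicate block in DESeq2, 22 genes were lower, 1 was higher and 247 differed by batch (limma: 0, 0 and 142). With no filter 51 differed by batch. Leaving out 1 littermate pair gave 0 to 168 lower genes (168 without pair 1, 1 without pair 2), 0 to 3 higher genes, 5 to 728 genes by batch (5 without pair 2, 728 without pair 3), and a members' median from -0.0465 (without pair 2) to 0.0523 (without pair 1). These fits rest on 2 pairs, and the cause was not tested.

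Of 108 results under alternatives for single members, 102 kept their sign and side of the threshold and 6 changed sign. *Exosc3* was at 0.0027 under quantile normalization. Leaving out 1 pair gave -0.0670 to 0.0807 for *Exosc3* (0.0807 without pair 1), -0.0269 to 0.0456 for *Exosc7* (-0.0269 without pair 2), -0.0668 to 0.108 for *Exosc9* (-0.0668 without pair 2, -0.0356 without pair 3) and -0.0715 to 0.0445 for *Exosc10* (0.0445 without pair 3). The sign of *Dis3*, *Exosc2*, *Exosc4*, *Exosc5* and *Exosc8* held under all alternatives run, while leaving out 1 pair gave -0.245 to -0.0638 for *Exosc4*, -0.133 to -0.0290 for *Exosc2* and 0.0202 to 0.102 for *Exosc8* (the values nearest 0 without pair 3), and 0.117 to 0.267 for *Exosc5* (0.117 without pair 1). Depth limits *Exosc4* most, with 144 to 177 fragments per library.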
